A study of Mus musculus with 3 samples.

Results

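Apoe, Abca1, Abcg1, Hmgcs1, Sqle and Insig1 were followed as a group of 6 genes of cholesterol handling, of the 32285 genes measured in single splenic B cells of 3 mouse genotypes. They were taken by gene symbol and had been chosen with their levels in these libraries known. Their values are therefore given as a description, and no test on them is used as support. All mice received a single intraperitoneal immunization with sheep red blood cells, 10 days before the spleen was taken. In 3′RR-BCL2 mice, a randomly integrated transgene holds the human BCL2 gene with its own promoters beside the enhancers of the immunoglobulin heavy chain 3′ regulatory region (3′RR). In Igκ-BCL2 mice, the same BCL2 cassette replaces the Jκ segments of the kappa light chain locus. WT mice carry neither. Each genotype gave 1 library, so a genotype difference cannot be told apart from a difference between libraries or mice, and no test between genotypes was possible. The WT library is labelled as sorted B cells and both BCL2 libraries as whole tissue cells, whereas the study describes magnetic B cell selection for all 3. Age is not given in the labels.

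Cholesterol is made in the cell or taken up from lipoproteins, and it leaves the cell through transporters. Apoe encodes apolipoprotein E, which carries lipids on lipoproteins and accepts cholesterol that leaves cells. Abca1 and Abcg1 encode ATP-dependent transporters that move cholesterol out of the cell; together with Apoe they are well-known targets of LXR, the nuclear receptors for oxysterols. Hmgcs1 makes the HMG-CoA from which the pathway to cholesterol starts, Sqle converts squalene to its epoxide, and Insig1 holds the SREBP transcription factors in the endoplasmic reticulum when sterols are plentiful, while its own gene is a target of SREBP. In the spleen, Apoe is known above all as a product of macrophages. Germinal centers (GCs) are the sites where B cells that met antigen divide, mutate their antibody genes and are selected.

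The libraries held 7579 (3′RR-BCL2), 7034 (Igκ-BCL2) and 11269 (WT) barcodes with 45539172, 37433924 and 62777659 unique molecular identifiers (UMIs, each a captured RNA molecule). After filters, the B lineage counted 6561, 6243 and 9932 cells, whose median depth was 5291, 4838 and 5031 UMIs. Each cell was thinned to 2000 UMIs and given a stage by the number of marker genes with a UMI. The GC gate took 379 cells of 3′RR-BCL2, 186 of Igκ-BCL2 and 36 of WT, and a further 63, 8 and 16 GC cells were dividing. The plasma gate took 33, 34 and 27 cells, the marginal zone gate 292, 88 and 480, the gate for activated cells (Myc, Ccnd2 and ribosome-building genes) 117, 87 and 277, the interferon-response (IFN) gate 100, 100 and 128, the transitional gate 56, 83 and 139, and the follicular gate 2502, 2840 and 4773. Another 32, 19 and 6 cells met both the GC and the plasma gate, and 2768, 2648 and 3794 met none. The gates have edges: 206, 98 and 23 cells of the 3 libraries carried exactly the required number of GC markers, and 323, 173 and 72 carried 1 fewer. Of the 10 genes highest in the GC gate, 8 were GC markers, led by Basp1 and Mybl1, which follows from a gate set on these markers. The WT IFN gate also held myeloid RNA, with 561 of its 901 Lyz2 UMIs in 1 cell. The libraries shared 15 to 24 barcodes pairwise. Xist stood at 1665, 0.135 and 0.193 counts per 1000000 UMIs (CPM) in follicular cells of 3′RR-BCL2, Igκ-BCL2 and WT, and the Y-linked Ddx3y at 0, 199 and 203, so sex and the 3′RR-BCL2 genotype cannot be told apart.

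In the mouse genome (GRCm38, GENCODE M21), Apoe lies on chromosome 7 from 19696109 to 19699188 on the minus strand, Abca1 on chromosome 4 from 53030787 to 53159895 on the minus strand, and Abcg1 on chromosome 17 from 31057675 to 31117988 on the plus strand. Hmgcs1 lies on chromosome 13 from 119690379 to 119708260, Sqle on chromosome 15 from 59315077 to 59331192 and Insig1 on chromosome 5 from 28071363 to 28078662, all on the plus strand. All 6 are protein-coding genes, and values are whole-gene UMIs read from the 3′ end of the transcript. An antisense gene, Gm48342, overlaps Hmgcs1.

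The DNA before the start of 4 of the 6 genes is shown because Abca1 and Abcg1 differed in pattern, below, from Hmgcs1, Sqle and Insig1. Apoe shared the pattern of neither transporter. The windows were searched for motifs known from sterol control. The sequences come from RefSeq (GRCm38.p6), read 5′ to 3′ on the strand of the gene. Apoe is chr7:19699189-19699438, Abca1 chr4:53159896-53160145, Hmgcs1 chr13:119690101-119690350 and Insig1 chr5:28071162-28071362. Abcg1 and Sqle had no window in the table used. Capitals mark matches, on either strand, to 4 motifs: the sterol regulatory element TCACNCCAC, the E-box CACGTG, the CCAAT box, which reads ATTGG on the other strand, and the LXR element, a pair of AGGTCA repeats parted by any 4 bases.
Apoe: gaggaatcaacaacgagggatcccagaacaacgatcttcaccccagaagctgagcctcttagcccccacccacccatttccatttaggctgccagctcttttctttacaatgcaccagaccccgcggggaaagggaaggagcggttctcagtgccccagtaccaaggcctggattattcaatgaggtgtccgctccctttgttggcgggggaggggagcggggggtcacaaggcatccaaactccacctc
Abca1: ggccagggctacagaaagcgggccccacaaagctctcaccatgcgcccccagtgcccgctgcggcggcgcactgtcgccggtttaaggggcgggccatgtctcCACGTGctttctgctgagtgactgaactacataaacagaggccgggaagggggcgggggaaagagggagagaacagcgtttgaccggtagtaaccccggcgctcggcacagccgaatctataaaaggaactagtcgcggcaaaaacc
Hmgcs1: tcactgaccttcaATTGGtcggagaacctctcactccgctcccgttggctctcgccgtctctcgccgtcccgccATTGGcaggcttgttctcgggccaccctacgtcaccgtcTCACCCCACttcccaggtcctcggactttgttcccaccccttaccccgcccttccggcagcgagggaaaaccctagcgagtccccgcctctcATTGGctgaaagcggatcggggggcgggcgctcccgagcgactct
Insig1: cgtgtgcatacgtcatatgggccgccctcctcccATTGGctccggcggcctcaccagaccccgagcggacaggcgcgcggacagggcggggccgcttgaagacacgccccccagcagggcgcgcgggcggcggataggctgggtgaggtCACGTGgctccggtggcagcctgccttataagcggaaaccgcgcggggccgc
The Hmgcs1 window held the sterol regulatory element at bases 114 to 122, a motif found in 1.05% of 32851 promoter windows of 250 bases, and 3 CCAAT boxes. The Insig1 window held 1 CCAAT box and an E-box at bases 150 to 155. Abca1 had an E-box at bases 104 to 109, and the Apoe window held none of the 4 motifs. The E-box was found in 6.02% of all windows, the CCAAT box in 33.8% and the LXR element in 0.0152%. Of 15 cholesterol synthesis genes with a window, 14 held a CCAAT box, 3 an E-box and 1, Hmgcs1 itself, the sterol regulatory element. A gene was counted if any of its windows matched, whereas the shares over all windows count each window. A match is a description of letters, and a window without one says nothing of factors that bind elsewhere.

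Apoe had its highest means in plasma-gate and GC cells and its lowest in activated, transitional, IFN and marginal zone cells, although in WT the plasma gate was at the follicular level and dividing GC cells were highest. In GC cells it stood at 1663 CPM in 3′RR-BCL2 (95% Poisson interval 1615–1712, 4566 UMIs), 1794 in Igκ-BCL2 (1723–1867, 2398 UMIs) and 827 in WT (732–930, 277 UMIs). In follicular cells it stood at 360 (350–370), 287 (278–295) and 242 (236–248). GC cells thus held 4.62 times the follicular level in 3′RR-BCL2 (4.44–4.81), 6.26 times in Igκ-BCL2 (5.95–6.58) and 3.42 times in WT (3.02–3.86). All intervals cover counting error only.

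Dividing GC cells differed from other GC cells in the BCL2 libraries. Apoe was 764, 627 and 850 CPM in dividing GC cells of 3′RR-BCL2, Igκ-BCL2 and WT, which is 0.46 (0.418–0.504), 0.35 (0.263–0.455) and 1.03 (0.825–1.28) times the level of the other GC cells of the same library. The interval of the WT ratio included 1, and those of both BCL2 libraries lay below 1; that difference between libraries was not tested. The Igκ-BCL2 value rests on 8 cells and 56 UMIs.

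Marginal zone cells had 209, 248 and 201 Apoe CPM in 3′RR-BCL2, Igκ-BCL2 and WT. Activated cells had 169, 123 and 112, IFN cells 257, 194 and 101, and transitional cells 289, 73.0 and 50.7. Over the 3 libraries the stage means ran from plasma (4022 ± 3454 CPM, SD, n = 3 libraries of different genotypes) and GC (1428 ± 525) to dividing GC (747 ± 113), follicular (296 ± 59.8), marginal zone (219 ± 25.5), IFN (184 ± 78.3), transitional (138 ± 132) and activated (135 ± 30.2). The 3 libraries' ranges overlapped between all neighbours in this order except dividing GC and follicular. Activated cells were below follicular cells by a like factor in every library, 0.469 (0.394–0.554), 0.428 (0.339–0.534) and 0.464 (0.405–0.530).

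**Figure D1:**
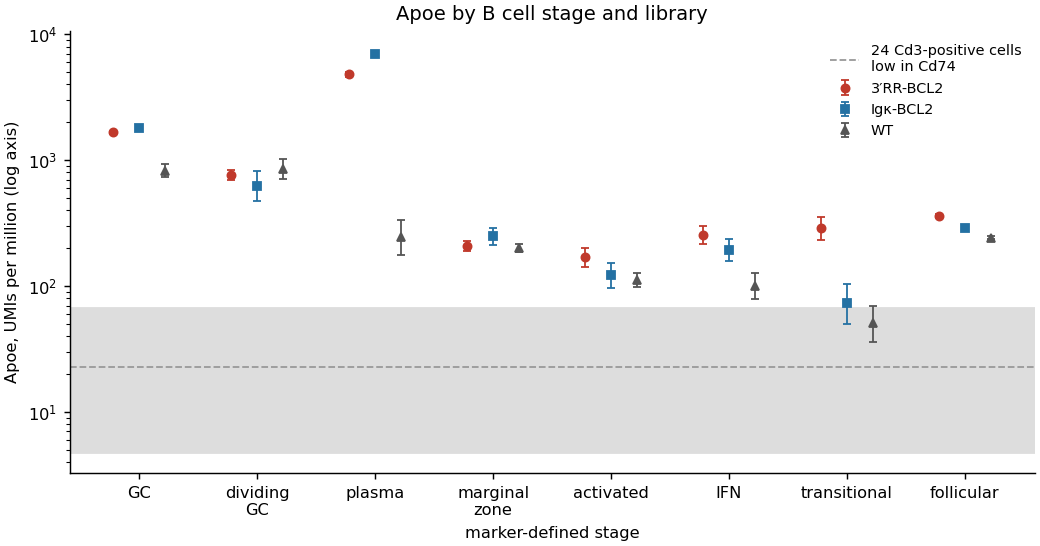
Apoe in CPM (log axis) by marker-defined stage (horizontal axis) in 3′RR-BCL2, Igκ-BCL2 and WT, 1 library each, with 95% Poisson intervals; the grey band and dashed line give 24 Cd3-positive cells low in Cd74 (22.8, 4.69–66.5). GC cells lie above follicular cells in each library, and the WT plasma-gate value (247) lies far below those of 3′RR-BCL2 (4798) and Igκ-BCL2 (7022).

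Against WT, Apoe in GC cells was 2.01-fold higher in 3′RR-BCL2 (1.78–2.28) and 2.17-fold higher in Igκ-BCL2 (1.92–2.47). The GC gates differed in make-up, however. Medians were 0, 0 and 1 dividing markers and 6794, 7008 and 9085.5 UMIs per GC cell of 3′RR-BCL2, Igκ-BCL2 and WT. Whether this difference bears on the ratios was not tested. The WT value is the least firm, since 3 of its 36 GC cells held 36.5% of the GC Apoe UMIs, against 4.01% in the 3 richest cells of 3′RR-BCL2 and 11.1% in those of Igκ-BCL2. The median GC cell nevertheless carried 9 Apoe UMIs for 3′RR-BCL2 and 9 for Igκ-BCL2, against 6 in WT. Thinned to equal depth, 83.4% of GC cells of 3′RR-BCL2 (exact binomial interval 79.2–87.0) and 78.5% of Igκ-BCL2 (71.9–84.2) had an Apoe UMI, against 55.6% of WT (38.1–72.1). Unthinned, the shares were 96.0%, 94.1% and 86.1%. At least 3 UMIs were found in 55.1% and 50.5% of the BCL2 GC cells and in 19.4% of WT GC cells.

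The ratio to WT varied between stages. In follicular cells the ratio was 1.49 (1.44–1.55) for 3′RR-BCL2 and 1.19 (1.14–1.23) for Igκ-BCL2, and taken as a mean over cells instead of a sum the Igκ-BCL2 value was 0.02 on the log2 scale, against 0.25 from the sums. In marginal zone cells it was 1.04 (0.925–1.17) and 1.24 (1.04–1.46), and in dividing GC cells 0.899 (0.737–1.10) and 0.738 (0.528–1.02). Transitional cells of 3′RR-BCL2 held 5.71 times the WT level (3.91–8.48), from 95 UMIs in 56 cells, against 1.44 (0.871–2.36) in Igκ-BCL2. Thinned follicular cells had an Apoe UMI in 32.8% of 3′RR-BCL2 cells (30.9–34.7), 24.4% of Igκ-BCL2 cells (22.8–26.0) and 26.5% of WT cells (25.3–27.8), so that in follicular Igκ-BCL2 cells the share lay below WT while the summed level lay above it, and no order between them is read. IFN cells held 2.54 (1.91–3.41) and 1.92 (1.41–2.63) times the WT level, and activated cells 1.51 (1.21–1.87) and 1.09 (0.837–1.42) times. In cells that met no gate, Apoe was 2.98-fold (2.88–3.09) and 2.48-fold (2.39–2.57) the WT level.

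**Figure D2:**
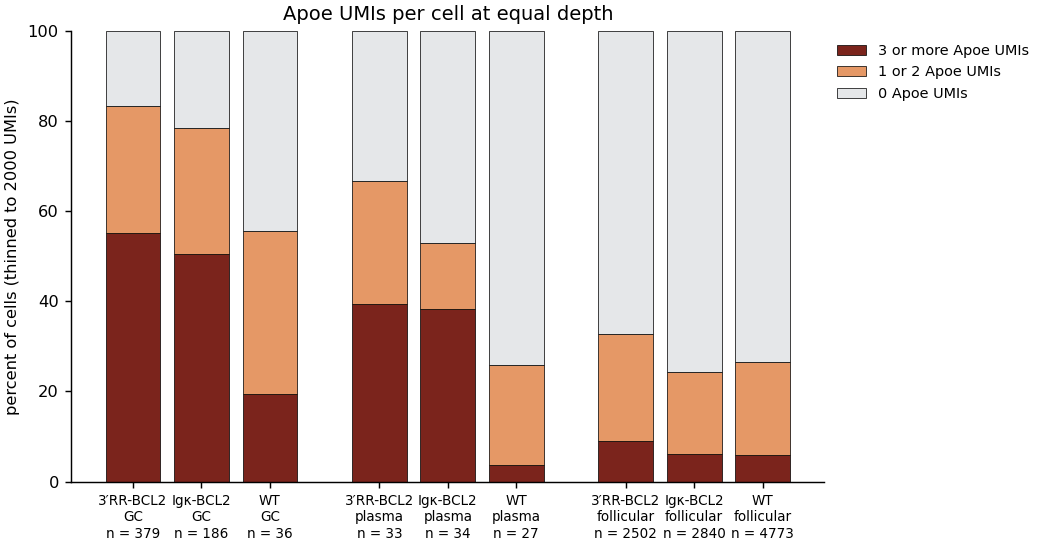
Percent of GC, plasma-gate and follicular cells (vertical axis) with 3 or more, 1 or 2, or 0 Apoe UMIs once every cell was thinned to 2000 UMIs, for 3′RR-BCL2, Igκ-BCL2 and WT. Cells with 3 or more UMIs make up 55.1%, 50.5% and 19.4% of GC cells, and 9.07%, 6.13% and 5.97% of follicular cells.

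The plasma-gate level of Apoe rests on few cells. Counting those that also met the GC gate, 59, 40 and 29 cells of 3′RR-BCL2, Igκ-BCL2 and WT carried exactly the required number of plasma markers. Only 6, 13 and 4 carried more. Plasma-gate cells carried a median of 2, 3 and 5 follicular markers, against 5 in follicular cells of each library. Whether the WT plasma-gate cells are of the same kind was not tested. Apoe stood at 4798 CPM in 3′RR-BCL2, 7022 in Igκ-BCL2 and 247 (178–333) in WT, ratios of 19.5 (14.3–27.1) and 28.5 (21.004–39.6) to WT. Without cells of 100 or more Apoe UMIs, a limit chosen after seeing the data, the values were 1217, 842 and 247. These cells held 79.6% of the plasma-gate Apoe UMIs of 3′RR-BCL2 and 89.9% of those of Igκ-BCL2. Apoe was itself among the 10 genes highest in the plasma gate over the other B-lineage cells. Jchain and Slpi stood at the head, and both are markers of that gate. An Apoe UMI was found in 66.7%, 52.9% and 25.9% of thinned plasma-gate cells.

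There were 11 B-lineage cells with 100 or more Apoe UMIs, 5 in 3′RR-BCL2 with 135 to 553 and 6 in Igκ-BCL2 with 173 to 959. At the top, Apoe made up 8.25% of a cell's UMIs. WT had none among 9932 cells, which allows a share of up to 0.0302%, and its richest cell carried 74. Of the 11 cells, 8 were in the plasma gate and 3 met no gate. They carried 2 to 8 of the 13 plasma markers and 6 to 81 UMIs of Cd79a, a subunit of the B cell receptor. Of the 14 genes of the macrophage list they held 2 UMIs in all, and C1q (the 3 complement genes that mark splenic macrophages), Lyz2 and Cd3 were at 0. Cells with at least 2 C1q or 2 Cd3 UMIs had been set aside beforehand, so low counts of these genes follow from the filter. The efflux partners did not stand out in the 11 cells, where 5 Abca1 and 5 Abcg1 UMIs lay beside 4211 of Apoe. Abca1 at 37.2 CPM in these cells was below its follicular level of 93.4 in 3′RR-BCL2, 110 in Igκ-BCL2 and 113 in WT.

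Free RNA was judged in cells that should lack Apoe. Over the 3 libraries, 24 Cd3-positive cells with at most 4 UMIs of Cd74 (a B cell gene of antigen presentation) held 3 Apoe UMIs among 131786, or 22.8 CPM (4.69–66.5), 1 UMI in 1 cell of each library. The share with a UMI was 16.7% in 3′RR-BCL2, 16.7% in Igκ-BCL2 and 8.33% in WT, unthinned, at median depths of 4448, 7861.5 and 4192 UMIs. Every stage lay above the upper bound of 66.5 apart from WT transitional cells; the transitional value of Igκ-BCL2 (73.0) was above that bound, but its own interval (49.6–104) reached below it. Against each library's own upper bound (192, 127 and 94.8 CPM), the values of activated 3′RR-BCL2 and Igκ-BCL2 cells and of transitional Igκ-BCL2 and WT cells were lower, and the intervals of marginal zone 3′RR-BCL2 cells and of WT IFN cells reached below it. T cells make the transcripts of the other members, so these cells give no floor for them.

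Macrophage RNA was measured beside Apoe. Cells with at least 2 C1q UMIs had been set aside, so low C1q counts in the remaining cells follow from the filter. The C1q genes had 0 UMIs in GC cells of all 3 libraries, beside 4566, 2398 and 277 of Apoe. In barcodes with at least 2 C1q UMIs, C1q and Apoe UMIs numbered 179 and 70 for 3′RR-BCL2, and 131 and 65 for WT. Igκ-BCL2 had no such barcode. Over all B-lineage cells, C1q UMIs were 7, 1 and 14, against 23689, 17225 and 12625 of Apoe. Of the 14 macrophage genes, 9, 10 and 11 were at 0 in GC cells, and the sum was 10.9, 14.96 and 14.9 CPM with Cd68 highest.

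Apoc2, the gene of an apolipoprotein that activates lipoprotein lipase, lies on the same strand 18167 bases from Apoe, at 19671579 to 19677941 on chromosome 7. It was read with 35, 18 and 1 UMIs in GC cells of 3′RR-BCL2, Igκ-BCL2 and WT, or 12.7, 13.5 and 2.98 CPM. In follicular cells it had 4, 0 and 0 UMIs. The ratio of GC to follicular cells was 44.9 (16.0–174) for 3′RR-BCL2. In Igκ-BCL2, a floor of 3 counts in place of the 0 follicular UMIs gave a ratio of 66.5. That value leaves out the counting error of the 18 GC UMIs and is no lower bound. It passed the test below (adjusted p = 3.28e-13, edgeR's quasi-likelihood test with Benjamini-Hochberg adjustment), but without the 3′RR-BCL2 library it had fewer than 20 UMIs and was not tested.

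Abca1 did not share the GC level of Apoe. It stood at 67.0 CPM in GC cells of 3′RR-BCL2 (57.7–77.4), 108 in Igκ-BCL2 (91.5–128) and 29.8 in WT (14.3–54.9, 10 UMIs), against 93.4 (88.4–98.5), 110 (105–115) and 113 (108–117) in follicular cells. The ratio of GC to follicular cells was 0.718 (0.612–0.838), 0.987 (0.827–1.17) and 0.265 (0.127–0.489), and the interval of Igκ-BCL2 alone included 1. Against WT, Abca1 in GC cells was 2.25-fold (1.19–4.76) and 3.63-fold (1.92–7.74), both resting on 10 WT UMIs. In follicular cells it was 0.830 (0.777–0.886) of WT for 3′RR-BCL2 and 0.977 (0.919–1.04) for Igκ-BCL2.

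Activated cells had the lowest mean of Abca1. They held 16.7, 12.3 and 32.1 CPM in 3′RR-BCL2, Igκ-BCL2 and WT, 0.178 (0.0973–0.300), 0.112 (0.0481–0.221) and 0.285 (0.220–0.365) times the follicular level. Here both BCL2 libraries were below WT, by ratios of 0.519 (0.269–0.934) and 0.382 (0.158–0.798). Marginal zone cells held 46.7, 66.8 and 54.8, transitional cells 45.7, 56.5 and 69.7, plasma-gate cells 84.8, 54.1 and 112, and IFN cells 65.0, 102 and 114 CPM. In the order of means, follicular cells (105 ± 10.4, SD, n = 3) came first and dividing GC (22.3 ± 19.4) and activated cells (20.4 ± 10.4) last, and only marginal zone and dividing GC were neighbours without overlapping ranges.

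Within GC cells, Abca1 was set beside Apoe in cells of 3 or more, 1 or 2, and 0 thinned Apoe UMIs. In 3′RR-BCL2 it was 84.0 (69.7–100), 52.4 (37.6–71.1) and 42.1 (26.4–63.8) CPM in these classes. In Igκ-BCL2 it was 116 (92.4–144), 93.9 (64.2–133) and 107 (72.3–153), with no difference beyond counting error. Hmgcs1 went the other way in 3′RR-BCL2, with 49.3 (38.5–62.2), 60.1 (44.1–79.9) and 88.1 (64.5–117), and stood at 48.9, 52.8 and 75.02 in Igκ-BCL2, where the intervals overlapped.

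Abcg1 had its lowest means in dividing GC, GC and activated cells. It stood at 31.3 (25.1–38.7), 47.1 (36.2–60.3) and 17.9 (6.57–39.0) CPM in GC cells of 3′RR-BCL2, Igκ-BCL2 and WT, against 83.5, 79.7 and 80.9 in follicular cells, ratios of 0.375 (0.298–0.467), 0.592 (0.452–0.763) and 0.221 (0.0812–0.483). Activated cells held 44.0, 32.2 and 30.6, or 0.527, 0.404 and 0.379 times the follicular level, and marginal zone cells, at 85.0, 77.0 and 78.5, were at the follicular level. Follicular Abcg1 hardly differed between genotypes, with ratios to WT of 1.03 (0.960–1.11) and 0.985 (0.917–1.06). In dividing GC cells it had 4, 0 and 5 UMIs. IFN cells had the highest mean (96.7 ± 21.2, SD, n = 3), ahead of follicular (81.3 ± 1.95), marginal zone (80.1 ± 4.25) and transitional cells (75.9 ± 8.90), whose ranges overlapped, while the ranges of transitional and plasma cells (51.6 ± 7.34) did not, nor those of plasma and activated cells (35.6 ± 7.31).

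**Figure D3:**
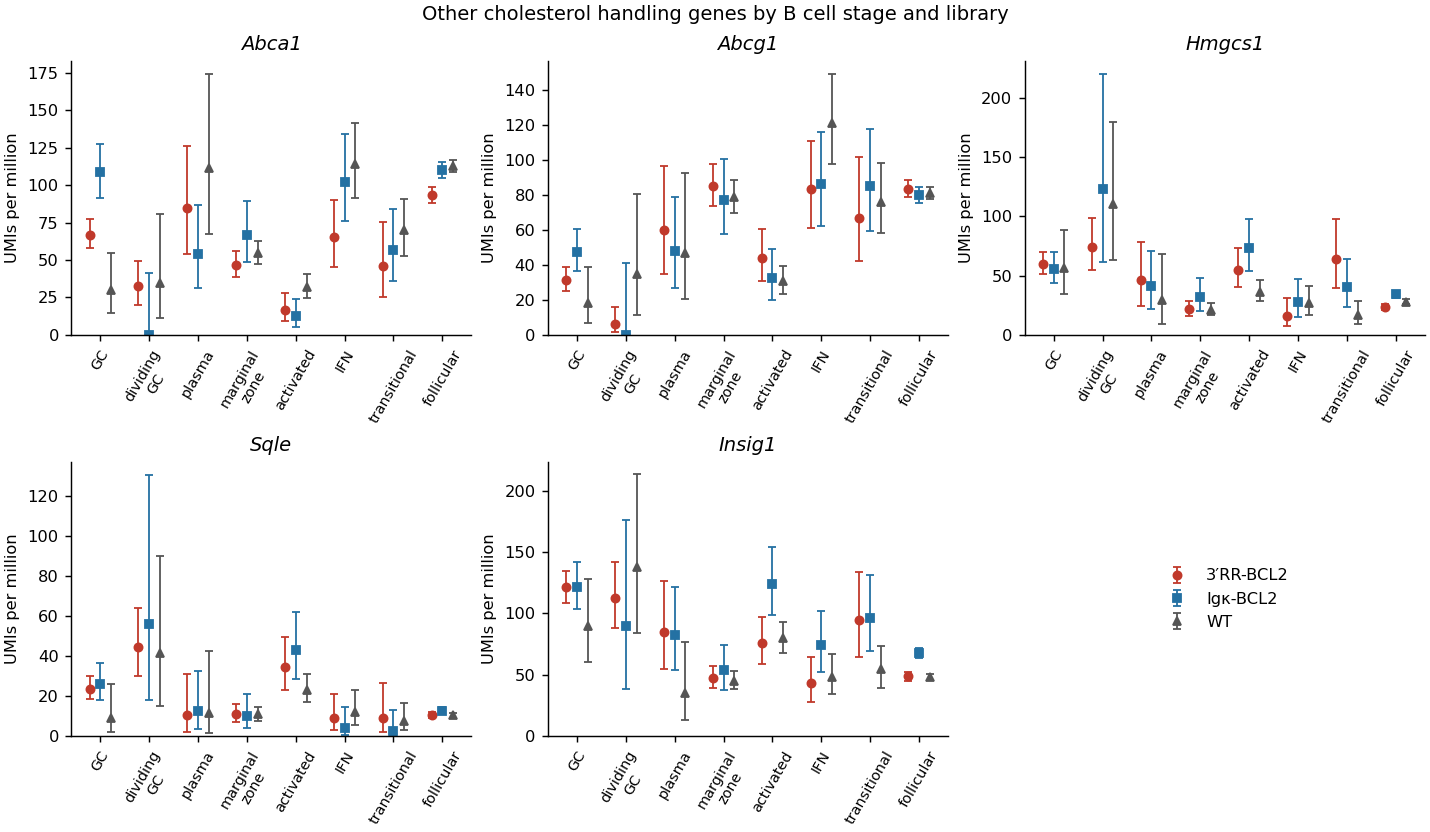
Abca1, Abcg1, Hmgcs1, Sqle and Insig1 in CPM (vertical axes, each from 0) by marker-defined stage in 3′RR-BCL2, Igκ-BCL2 and WT, with 95% Poisson intervals. Abca1 and Abcg1 are low in activated cells (Abca1 16.7, 12.3 and 32.1), and Hmgcs1 and Sqle reach their highest means in dividing GC cells (103 and 47.4).

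Hmgcs1, Sqle and Insig1 were higher in GC and activated cells than in follicular cells. Hmgcs1 stood at 59.7 (50.9–69.6), 55.4 (43.5–69.5) and 56.7 (34.1–88.6) CPM in GC cells of 3′RR-BCL2, Igκ-BCL2 and WT, against 23.7, 34.1 and 28.0 in follicular cells, ratios of 2.52 (2.08–3.04), 1.63 (1.26–2.08) and 2.03 (1.21–3.19). Dividing GC cells held 74.1, 123 and 111, from 48, 11 and 16 UMIs, 3.12 to 3.96 times the follicular level. Activated cells held 54.7, 73.6 and 36.6. Dividing GC cells (103 ± 25.5, SD, n = 3) came first in the order of means with no overlap with GC cells (57.3 ± 2.24), and all further neighbours down to marginal zone (24.9 ± 6.13) and IFN cells (23.7 ± 6.49) overlapped.

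Sqle was read with fewer UMIs. It stood at 23.7 (18.3–30.2), 26.2 (18.2–36.4) and 8.95 (1.85–26.2, 3 UMIs) CPM in GC cells, 34.5 (23.1–49.6), 43.0 (28.5–62.1) and 23.2 (17.1–30.9) in activated cells, and 10.4, 12.6 and 10.3 in follicular cells. Activated cells thus held 3.33 (2.15–4.98), 3.41 (2.20–5.08) and 2.26 (1.62–3.09) times the follicular level. The GC to follicular ratio was 2.28 (1.68–3.08) for 3′RR-BCL2 and 2.08 (1.40–2.99) for Igκ-BCL2, and in WT, at 0.871 (0.178–2.57), it was not measurable at this depth. Dividing GC cells had the highest mean (47.4 ± 7.60, SD, n = 3), and the ranges of all neighbouring stages overlapped.

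Insig1 stood at 121 (109–135), 122 (104–142) and 89.5 (60.4–128) CPM in GC cells of 3′RR-BCL2, Igκ-BCL2 and WT, 76.1 (58.6–97.2), 124 (98.7–154) and 79.6 (67.7–92.8) in activated cells, and 48.6, 67.6 and 48.1 in follicular cells. GC cells were 2.50 (2.18–2.85), 1.80 (1.52–2.13) and 1.86 (1.25–2.67) times, and activated cells 1.57 (1.19–2.03), 1.84 (1.45–2.31) and 1.65 (1.39–1.95) times the follicular level. Marginal zone cells, at 47.5, 53.7 and 45.2, were at the follicular level or just under it. All neighbours in the order of Insig1 means overlapped.

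Against WT, the ratios of these 3 genes in activated and follicular cells were higher in Igκ-BCL2 than in 3′RR-BCL2. In activated cells, Hmgcs1 was 1.497 (1.01–2.19) and 2.01 (1.37–2.93) times the WT level in 3′RR-BCL2 and Igκ-BCL2, Sqle 1.49 (0.902–2.41) and 1.85 (1.12–3.02), and Insig1 0.957 (0.705–1.29) and 1.56 (1.18–2.05). In follicular cells, Insig1 was 1.01 (0.918–1.11) and 1.40 (1.29–1.53), Hmgcs1 0.849 (0.743–0.967) and 1.22 (1.09–1.37), and Sqle 1.01 (0.819–1.24) and 1.23 (1.01–1.48). The thinned shares of activated cells with an Hmgcs1 UMI were 12.0% in 3′RR-BCL2, 5.75% in Igκ-BCL2 and 6.14% in WT, at 14, 5 and 17 cells, and do not follow the summed levels, so no order is read from them. In GC cells, Hmgcs1 was 1.05 (0.653–1.79) and 0.976 (0.583–1.71) times WT, Insig1 1.35 (0.931–2.04) and 1.36 (0.918–2.08), and Sqle 2.64 (0.866–13.2) and 2.92 (0.922–14.9), from 3 WT UMIs, all with intervals that include 1.

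The number of members that differed at least 1.5-fold from WT, with 0.5 added to each count, was read against all genes. Here and below, genes needed at least 20 UMIs in either the BCL2 or the WT library compared. In GC cells 4 of 6 were higher in 3′RR-BCL2, where 16.2% of all genes were, and the same 4 (Apoe, Abca1, Abcg1 and Sqle) in Igκ-BCL2, where 19% were; 15.1% and 14.1% of all genes were lower. WT GC cells had 10 Abca1, 6 Abcg1 and 3 Sqle UMIs, so these genes met the minimum only through the BCL2 libraries. The intervals of both Sqle ratios included 1. In activated cells 2 members (Apoe and Hmgcs1) were higher and 1 (Abca1) lower in 3′RR-BCL2, against 4.65% and 9.67% of all genes. In Igκ-BCL2, 3 (Hmgcs1, Sqle and Insig1) were higher and 1 (Abca1) lower, against 7.68% and 11.5%. In follicular cells 0 members passed in either library, where 2.74% and 7.03% of all genes were higher and 4.46% and 4.51% lower. Since the members were chosen on these libraries, these shares support nothing beyond the values themselves.

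The stages were also compared over all genes with the 3 libraries as replicates and the library as a block (edgeR's quasi-likelihood test, Benjamini-Hochberg adjustment over all genes tested). Because the 3 libraries differ in genotype, these fits ask what GC or activated cells shared across genotypes. Of 12945 genes, 1847 (14.3%) were higher in GC than in follicular cells and 1941 (15%) lower. Of the members, Apoe (2.14 on the log2 scale), Insig1 (0.99), Hmgcs1 (0.97) and Sqle (0.94) were in the first group and Abca1 (−0.54) and Abcg1 (−1.29) in the second, given here as a description. Without the 3′RR-BCL2 library, 669 genes were higher and 729 lower, and of the members Apoe, Insig1 and Abcg1 passed. Without Igκ-BCL2 the counts were 1107 and 1098 and Sqle did not pass, with DESeq2 Sqle and Abca1 did not, and without the library block Abca1 did not. Since the members were chosen on these same libraries, whether a member passed, here or in the fits below, describes it and supports nothing further.

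Most of the rest of the cholesterol synthesis pathway was also higher in GC cells. Of 18 synthesis genes besides the members, 10 rose and 1 fell, 17 had a ratio above 0, and the median was 0.75 on the log2 scale, beside −0.07 over all genes. Fdps, which makes farnesyl diphosphate, rose by 1.63 (adjusted p = 4.45e-12, edgeR), with 49.9, 49.4 and 44.8 CPM in GC cells of 3′RR-BCL2, Igκ-BCL2 and WT against 12.6, 18.0 and 15.4 in follicular cells. Cyp51, the lanosterol demethylase, rose by 1.43 (adjusted p = 3.16e-13, edgeR), with 73.6, 95.01 and 65.7 against 24.7, 33.9 and 25.6. The groups did not overlap in either gene. At the other end stood Ebp, a sterol isomerase, which fell by 0.56 on the log2 scale (adjusted p = 0.033, edgeR; not with DESeq2 or without either BCL2 library), and Sc5d, a sterol desaturase, with 0.25 (adjusted p = 0.288, edgeR). The count of 10 became 3 without the 3′RR-BCL2 library, 5 without Igκ-BCL2 and 6 with DESeq2.

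The uptake and LXR list genes that passed in GC cells were mostly lower. Over all genes, 14.3% were higher and 15% lower. Of 15 genes of sterol sensing and uptake, 0 rose (0 at an unadjusted p under 0.05, and 0 with DESeq2) and 3 fell, among them Npc2, which carries cholesterol out of lysosomes (−0.67), and Mbtps1, the protease that cuts SREBP (−0.41); Mbtps1 did not pass with DESeq2 or when any library was left out, and Npc2 did not without 3′RR-BCL2. The 2 highest were Lrp8 (1.74, adjusted p = 0.241, edgeR) and Srebf1 (0.37). With a looser cell filter 2 genes of this list rose, Lrp8 and Stard4, a sterol carrier, and Mbtps1 did not pass. Of 10 genes of the LXR and efflux list besides the members, 1 rose, Apoc2, and 3 fell: Pltp, the phospholipid transfer protein (−2.29), Mylip, a ubiquitin ligase (−0.77), and Tspo (−0.41), which did not pass with DESeq2 or without either BCL2 library. Lpcat3 (0.31, adjusted p = 0.400, edgeR) came next to Apoc2 at the upper end. Pltp had 4.37, 5.98 and 2.98 CPM in GC cells of 3′RR-BCL2, Igκ-BCL2 and WT, against 23.6, 20.6 and 21.4 in follicular cells.

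Of 8 measured genes of storage and oxysterols, 0 rose (0 at an unadjusted p under 0.05, and 0 with DESeq2) and 2 fell, Osbpl8 (−0.52) and Gpr183 (−2.34, adjusted p = 1.07e-25, edgeR). Gpr183 encodes EBI2, the receptor by which B cells follow oxysterols, and it stood at 113, 102 and 32.8 CPM in GC cells against 419, 459 and 431 in follicular cells. Osbpl8 did not pass with DESeq2, with 1 more marker or without either BCL2 library. Hsd3b7 (0.79, adjusted p = 0.507, edgeR) and Nceh1 (0.00) were the highest of that list. Of 10 fatty acid synthesis genes, Fasn (0.60) and Acly (0.43) rose and Scd1 (−1.07) and Elovl5 (−1.23) fell; Fads1 (2.04, adjusted p = 0.168, edgeR) and Elovl6 (0.78) had the highest ratios but did not pass. Neither Fasn nor Acly passed with DESeq2, with 1 more marker or without either BCL2 library, and Elovl5 did not without 3′RR-BCL2.

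**Figure D4:**
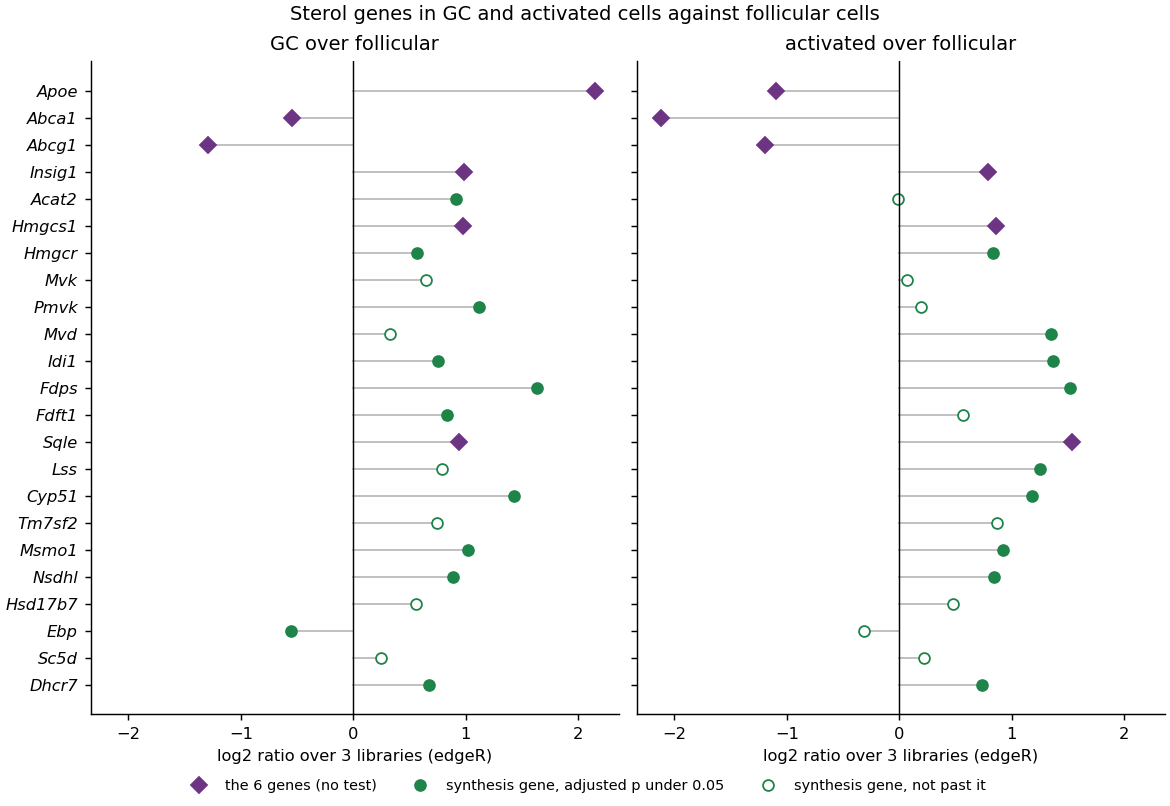
Log2 ratio of GC over follicular (left) and of activated over follicular cells (right), from edgeR over the 3 libraries, for Apoe, Abca1, Abcg1, Insig1 and 19 cholesterol synthesis genes; filled circles passed an adjusted p of 0.05, and diamonds are the 6 members, shown without a test. Apoe lies right of 0 in GC cells (2.14) and left in activated cells (−1.10), while most synthesis genes lie right of 0 in both.

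In activated cells synthesis genes were among those higher and LXR targets among those lower. Of 12820 genes, 2192 (17.1%) were higher than in follicular cells and 2261 (17.6%) lower; without the WT library 1468 were lower. The members divided 3 and 3: Sqle (1.54 on the log2 scale), Hmgcs1 (0.86) and Insig1 (0.78) higher, Apoe (−1.10), Abcg1 (−1.20) and Abca1 (−2.12) lower, a description. Of 18 further synthesis genes, 10 rose and 0 fell (0 at an unadjusted p under 0.05, and 0 with DESeq2), 16 were above 0, and the median was 0.83, beside −0.12 over all genes. Fdps rose by 1.52 (adjusted p = 3.31e-16, edgeR) and Idi1, the isopentenyl diphosphate isomerase, by 1.36 (adjusted p = 1.91e-18, edgeR). Ebp (−0.31) and Acat2 (−0.01) were lowest and did not pass. The count stayed between 7 and 9 when any library was left out.

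Beside synthesis, some genes of sterol sensing and uptake were among those higher in activated cells. Of 14 sensing and uptake genes, 5 rose, among them Scarb1, the HDL receptor (1.32), Scap, which escorts SREBP (0.64), Stard4, a sterol carrier (0.54), and Srebf2, the SREBP of the cholesterol pathway (0.27). No other gene of this list had a ratio above 0, and the list median was −0.18, beside −0.12 over all genes. Among those that fell was Lipa, the lysosomal lipase (−0.58). The 5 became 1 without the WT library and 3 with DESeq2, where Lipa did not pass.

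Of 9 LXR and efflux genes besides the members, 0 rose (0 at an unadjusted p under 0.05, and 0 with DESeq2) and 5 fell: Pltp (−1.90), Mylip (−1.51, adjusted p = 2.84e-31, edgeR), Tspo (−0.96), Abca7, a lipid transporter (−0.88), and Ncor1, a corepressor (−0.25). With DESeq2 or without the WT library, 3 fell, Abca7 and Ncor1 being lost. Rxrb (0.13) and Nr1h2, the gene of LXRβ (0.06), were highest and did not pass. Mylip stood at 61.9, 39.9 and 41.5 CPM in activated cells of 3′RR-BCL2, Igκ-BCL2 and WT, against 129, 164 and 129 in follicular cells, without overlap. Of 8 storage and oxysterol genes 4 fell, Cyp27a1, the sterol 27-hydroxylase (−2.86), Osbp (−0.60), Gpr183 (−0.53) and Soat1, which esterifies cholesterol (−0.44), of which Cyp27a1 and Gpr183 passed with DESeq2, and 0 rose (0 at an unadjusted p under 0.05, and 0 with DESeq2); the lowest ratio was that of Hsd3b7 (−6.48, adjusted p = 0.080, edgeR), which had 0 UMIs in activated cells of all libraries, and the highest those of Osbpl8 (0.14) and Nceh1 (−0.43). Of 9 fatty acid genes, Fasn, the fatty acid synthase (1.91, adjusted p = 2.46e-30, edgeR), and Acaca, the acetyl-CoA carboxylase (1.07), rose and Scd1 (−0.35) fell, though not without the WT library; Acss2 (−0.81) and Elovl5 (−0.50) were lowest and did not pass.

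Between dividing and other GC cells, 533 of 9530 genes (5.59%) were higher and 289 (3.03%) lower, but 124 and 10 without the 3′RR-BCL2 library and 307 and 28 with DESeq2. Of the members, Apoe (−0.93 on the log2 scale), Abca1 (−1.25) and Abcg1 (−1.58) were lower, and Sqle (1.07), Hmgcs1 (0.62) and Insig1 (−0.04) did not reach the threshold, as a description. Without the 3′RR-BCL2 library 0 members passed, and without Igκ-BCL2, with DESeq2 or with 1 more marker Apoe alone did. Of 18 synthesis genes 3 rose, Acat2 (1.28), Idi1 (0.94) and Fdps (0.91), and 15 had a ratio above 0, with a median of 0.43 beside −0.09 over all genes; without the 3′RR-BCL2 library 0 rose and without either other library 1. Mvd (−0.43) and Dhcr7 (−0.04) had the lowest ratios. Stard4 rose (1.21) in the sensing list, Gpr183 fell (−2.02) in the oxysterol list, and Fads2 rose (3.82) and Scd1 fell (−0.87) in the fatty acid list. None of these 4 passed without the 3′RR-BCL2 library, Gpr183 alone did without Igκ-BCL2, and Fads2 alone did with DESeq2. Of 10 LXR and efflux genes, 0 passed the edgeR test in either direction (1 at an unadjusted p under 0.05, and 0 with DESeq2). With a looser cell filter 2 of them fell, Abca7 and Mylip.

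Marginal zone cells had lower levels of 3 genes of the LXR list, and no synthesis gene passed. Of 12931 genes, 1106 (8.55%) were higher than in follicular cells and 1100 (8.51%) lower, against 423 and 399 without the library block. Abca1 (−0.95 on the log2 scale) and Apoe (−0.42) were the members in the lower group, while Abcg1 (0.01), Sqle (0.04), Insig1 (−0.08) and Hmgcs1 (−0.24) were near the follicular level. Apoe did not pass without the block, with 1 more marker or without 3′RR-BCL2. Of 18 synthesis genes, 0 passed in either direction (edgeR; 0 at an unadjusted p under 0.05, and 0 with DESeq2), and their median was −0.01, as over all genes. The highest were Tm7sf2 (0.48) and Mvd (0.41), the lowest Fdft1 (−0.42) and Sc5d (−0.12). With 1 more marker per gate 1 synthesis gene fell, Sc5d. In the LXR and efflux list Pltp (−0.82), Mylip (−0.56) and Abca7 (−0.51) fell. In the others, Srebf2 (−0.18), Gpr183 (−0.35) and Scd1 (−0.26) fell and Soat1 (0.26) and Scd2 (0.66) rose. Srebf2, Soat1 and Abca7 did not pass with DESeq2, without the block, without 3′RR-BCL2 or without WT, and Gpr183 and Scd1 did not without the block.

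Set against WT, more synthesis genes were higher in the Igκ-BCL2 library than in 3′RR-BCL2 in activated and follicular cells. Among activated cells, 12 synthesis genes besides the members had at least 20 UMIs, and 8 of them were at least 1.5-fold higher in Igκ-BCL2 and 3 in 3′RR-BCL2, against 7.68% and 4.65% of all genes, with medians of 0.73 and 0.38 on the log2 scale beside −0.03 and −0.03 over all genes. Idi1 was highest in Igκ-BCL2 (1.10), with 87.4 CPM in activated Igκ-BCL2 cells and 41.0 in activated WT cells. The lowest was Pmvk (0.13). In 3′RR-BCL2 the highest was Hsd17b7 (0.82) and the lowest Ebp (0.01).

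Among follicular cells the differences were smaller. Of 18 synthesis genes, 2 were at least 1.5-fold higher in Igκ-BCL2, Idi1 (0.68) and Acat2, with a median of 0.18 and 13 above 0, where 7.03% of all genes were higher. In 3′RR-BCL2, 0 were higher and 1, Mvk (−0.65), was lower, against 2.74% and 4.46% of all genes, with a median of −0.14 and 4 above 0. Counted with the members and without a gene that is not reported here, the interval of the ratio lay above 1 for 10 of 20 genes in follicular Igκ-BCL2 cells and below 1 for 0, against 20.6% and 18.1% of all genes, while in 3′RR-BCL2 it lay above 1 for 0 and below 1 for 6, against 9.43% and 20.4%. In activated cells it lay above 1 for 7 of 14 in Igκ-BCL2 and for 2 of 14 in 3′RR-BCL2, against 6.63% and 5.2% of all genes, and below 1 for 0 in both, against 7.47% and 5.76%. In GC cells, 1 of 12 synthesis genes was at least 1.5-fold higher and 2 lower in Igκ-BCL2, and 2 of 15 higher and 2 lower in 3′RR-BCL2, beside the shares given above for GC cells. In marginal zone cells, 3 of 16 were higher and 1 lower in Igκ-BCL2, against 7.99% and 11.8% of all genes, and 0 of 16 higher and 4 lower in 3′RR-BCL2, against 2.58% and 6.32%. Both ratios share the WT library.

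**Figure D5:**
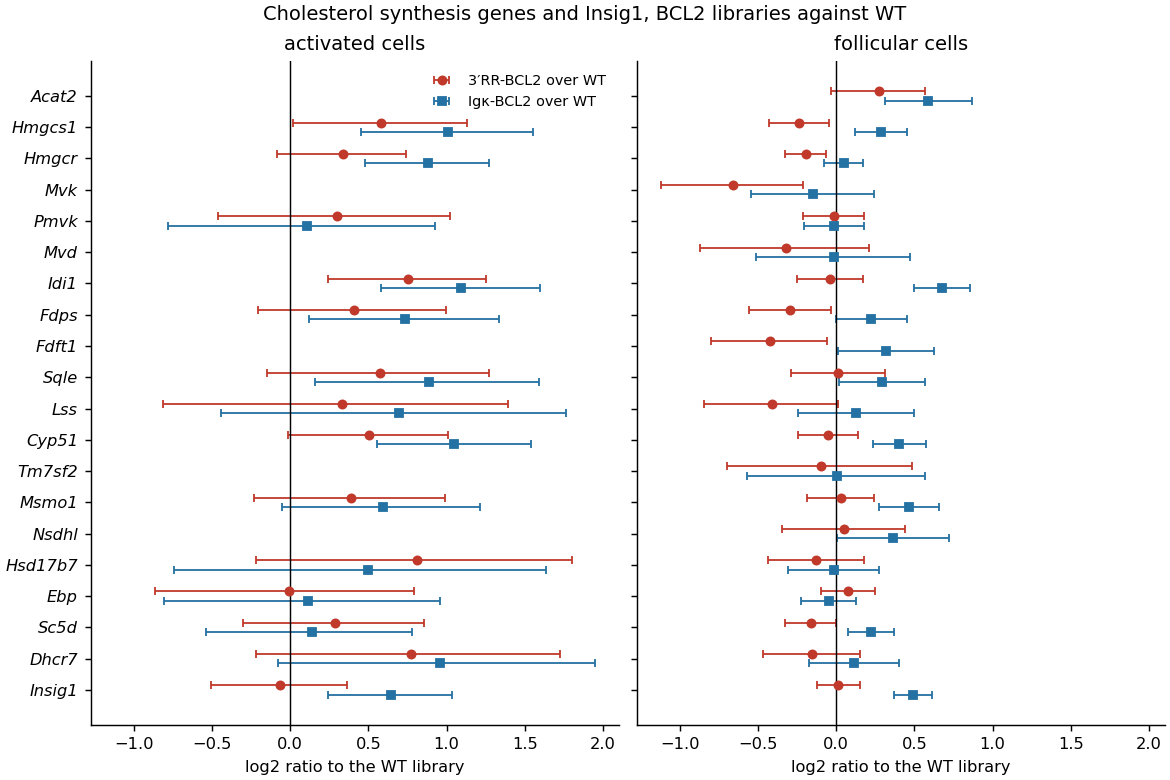
Log2 ratio of each BCL2 library to WT (horizontal axis) for 19 cholesterol synthesis genes and Insig1 in activated (left) and follicular cells (right), with 95% intervals of 2 Poisson counts, for genes with at least 20 UMIs. Igκ-BCL2 lies above 0 beyond its interval for 7 of 14 genes in activated and 10 of 20 in follicular cells, and 3′RR-BCL2 for 2 and 0.

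Likeness of pattern was measured by Pearson's r of log2(CPM + 5) over 24 points, 8 stages in each of 3 libraries, which share library and depth, among 9978 genes with at least 200 UMIs. The genes most like Apoe were 4933421O10Rik (0.857), Arhgap6 (0.857), Parm1 (0.844), Jchain (0.811), the antibody joining chain, and S1pr2 (0.807), a receptor of GC B cells and itself a gate marker, as is Jchain. The genes most like Hmgcs1 were Fdps (0.923), Slc1a5 (0.889), a glutamine transporter, Atp5k (0.883) and Cox5b (0.881) of the mitochondrial respiratory machinery, and Nsdhl (0.878) of sterol synthesis. Among the members, Insig1 (0.833) and Sqle (0.726) ran with Hmgcs1, and Abca1 (−0.652) and Abcg1 (−0.754) against it. Apoe ran with neither transporter, at 0.005 for Abca1 and −0.329 for Abcg1.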

How the data were processed

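Splenic B cells were profiled by 10x 3′ single-cell RNA sequencing, 1 library per genotype. The authors deposited raw UMI counts per gene and barcode, made with Cell Ranger 6.1.1; their processing notes name mm10 and hg38. The 6 genes and all lists were chosen with earlier results of these data known, and gate sizes were set after seeing the data. Barcodes were kept when they had between 800 and 4500 genes, no more than 20000 UMIs, up to 8% of UMIs from mitochondria and 10% or more from ribosomal protein genes, and cells with at least 2 Cd3 or 2 C1q UMIs were set aside. No doublet caller was run; cells that met several gates were kept apart. Gates required 3 markers (plasma 4, activated 5) after thinning to 2000 UMIs, and follicular cells 0 GC and at most 1 dividing marker. Cells under 2000 UMIs (165, 135 and 178 in 3′RR-BCL2, Igκ-BCL2 and WT) stayed without a stage. Summed counts per 1000000 UMIs carry exact 95% Poisson intervals, and shares Clopper-Pearson intervals. Stage fits used edgeR 4.0.16 (TMM, library block, at least 20 UMIs, adjusted p under 0.05), tested on simulated data, with DESeq2 1.42.0 as an alternative (R 4.3.3, Python 3.11.15, numpy 2.4.6, scipy 1.17.1, pandas 2.3.3). In the simulated data, 64% of 2-fold changes were recovered for GC over follicular cells and 42% for dividing over other GC cells. For marginal zone and activated over follicular cells the shares were 77% and 65%. A gene that did not pass can therefore still differ. Nothing says how many mice gave a library, so p-values measure only the spread between 3 libraries. Sums per library pair by construction, since both stages come from the same mice. Genes named in a list are the 2 highest and 2 lowest ratios and every called gene where fewer than 6 were called; others were named after their values were seen. Some genes of the lists are counted but not named or reported here.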

Additional observations from a re-analysis of the deposited data

Results flagged for a closer look

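Apoe differed in direction between libraries from the GC to the plasma gate. On the log2 scale the ratio of plasma to GC cells was 1.53 for 3′RR-BCL2 and 1.97 for Igκ-BCL2, against −1.75 in WT; the difference was not tested, since each genotype has 1 library. The plasma gate held 33, 34 and 27 cells, and 8 cells with 100 or more Apoe UMIs carried most of the 2 BCL2 values. Abca1 over the same step was −1.003 in Igκ-BCL2, against 1.90 in WT, where the GC value rests on 10 UMIs; this difference was not tested either. In 3′RR-BCL2, Abca1 stood at 84.8 CPM in plasma-gate and 67.0 in GC cells.

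In cells that met no gate, Apoe relative to follicular cells was 0.73 on the log2 scale for 3′RR-BCL2 and 0.79 for Igκ-BCL2, against −0.27 in WT, a difference that was not tested.

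High Apoe was also read in barcodes outside the comparisons. Barcodes that met the plasma gate but failed the cell filter held 1201 Apoe CPM in 3′RR-BCL2 (8 barcodes, 303 UMIs, of which 181 in 1) and 56.1 for Igκ-BCL2 (9 barcodes, 15 UMIs), against 464 in WT (5 barcodes, 72 UMIs, of which 71 in 1). Cd3-positive barcodes that also carried Cd74 held 15583 CPM in 3′RR-BCL2 and 3397 for Igκ-BCL2, against 542 in WT. In 3′RR-BCL2, 1323 of these 1424 UMIs came from 1 barcode with 18 Cd3 UMIs, 5 plasma markers and 57 Cd79a UMIs, and in Igκ-BCL2 328 of 419 came from 1 barcode with 8 Cd3 UMIs and 4 plasma markers. Whether these barcodes are doublets was not tested.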

How the results depend on the processing

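The genotype ratios of Apoe depend on the gates and on few cells. On the log2 scale, GC cells gave 1.01 for 3′RR-BCL2 over WT and 0.77 with 1 more marker per gate, and 1.12 for Igκ-BCL2 over WT and 1.30 with a looser cell filter. Follicular cells gave 0.58 for 3′RR-BCL2, 0.43 with 1 more marker and 0.46 as a mean over cells, and 0.25 for Igκ-BCL2 and 0.018 as a mean over cells. For plasma-gate cells the 3′RR-BCL2 ratio of 4.28 became 3.15 with the looser filter, 0.94 with 1 more marker, 3.55 as a mean over cells and 2.30 without cells of 100 or more Apoe UMIs, and the Igκ-BCL2 ratio of 4.83 became 3.45, 5.99, 4.27 and 1.77. The last of these settings was chosen after seeing the data. With 1 more marker, Apoe in activated 3′RR-BCL2 cells turned to −0.33, and as a mean over cells Abcg1 in 3′RR-BCL2 GC cells turned to −0.028. The difference in the share of GC cells with an Apoe UMI, 27.8 percentage points between 3′RR-BCL2 and WT, was 9.93 without thinning. The cause was not tested for any of these.

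Counts of genes moved in the stage fits. Higher in GC cells were 1847 genes, 1224 with DESeq2 and 669 to 2156 without 1 library; lower were 1941, 1020 and 729 to 1996. Higher in dividing GC cells were 533, 307 with DESeq2, 1449 with the looser filter, 346 with 1 more marker and 124 to 627 without 1 library; lower were 289, 28, 1006, 167 and 10 to 318. Higher in marginal zone cells were 1106, 531 with DESeq2, 654 with 1 more marker and 596 to 1170 without 1 library; lower were 1100, 467 with DESeq2 and 535 to 1079. Without the replicate block, marginal zone calls were 423 and 399. Lower in activated cells were 2261, 1342 with DESeq2 and 1468 to 1947 without 1 library; higher were 2192 and 1613 to 2096. The synthesis genes higher in GC cells, 10, were 6 with DESeq2 and 3 to 11 without 1 library. With 2 libraries left, the fits assume an even spread. No paired analysis was possible because each genotype has 1 library, for the genotype ratios. Depth limits WT GC cells most, with 10 Abca1, 6 Abcg1 and 3 Sqle UMIs in 36 cells.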
